A study of Bos taurus with 23 samples.

Results

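The 4 genes described here, ENSBTAG00000003550, ENSBTAG00000007543, ENSBTAG00000010180 and ENSBTAG00000039129, form the 2 gene pairs that best separated heifers pregnant by artificial insemination (AI) from all other heifers across both stations of the study. They are 4 of the 10422 genes that passed the expression filter in both stations, and they were selected on measured values of these same heifers. The measured values that selected them are the FPKM (counts scaled by gene length and library size) of every gene in every heifer, compared 2 genes at a time within a heifer. What the selection used, namely the order of the genes within a pair and any difference between pregnancy outcomes, is therefore given as description without a test. The station was not used by the selection, and the level of each gene alone was tested between stations. Because the selection asks for the same order within a pair at both stations, it ties the station differences of the genes of a pair to each other, and their shared direction is not a finding.

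Peripheral white blood cells (PWBC) were sequenced from 23 pubertal Angus x Simmental crossbred heifers, bled when they were inseminated. All heifers had received the same estrous synchronization (GnRH, an intravaginal progesterone insert and prostaglandin F2α) and fixed-time AI, and were later exposed to bulls. Station A supplied 6 heifers pregnant to AI (AI-pregnant) and 5 pregnant to natural breeding (NB-pregnant), and station B supplied 6 AI-pregnant and 6 non-pregnant heifers. Each heifer gave 1 library, and the heifers are numbered within a group in the order of their records. The label prefixes of the libraries differ between the stations, so station and library series cannot be told apart. PWBC are the mixed leucocytes of the buffy coat after lysis of the red cells. In such bulk samples fewer cells of a type and less RNA per cell cannot be told apart.

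The study names one pair as C11orf54 and TAF1B and the other as URB2 and a gene without a symbol, ENSBTAG00000039129. By elimination ENSBTAG00000010180 is URB2. The sources used here do not say which of ENSBTAG00000003550 and ENSBTAG00000007543 is TAF1B, so both are called by their identifiers. TAF1B is a subunit of the selectivity factor that brings RNA polymerase I to the ribosomal RNA genes, and URB2 takes part in assembling the large ribosomal subunit. Both steps belong to ribosome production, which leucocytes raise when they are activated to grow and divide. C11orf54 encodes a metal-binding protein that has been linked to ester hydrolysis.

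The top scoring pair approach, which the study used, takes 2 genes and asks in each heifer which of them has the higher FPKM. The score is the share of AI-pregnant heifers with 1 order minus the share of other heifers with the same order. Both pairs had a score of 0.833, since 10 of the 12 AI-pregnant heifers and 0 of the 11 others had the first gene above the second. Just outside lay 1 pair with a score of 0.826, ENSBTAG00000012695 and ENSBTAG00000047029, which holds no member, and the next 4 pairs scored 0.75. Each member depended on its own partner to reach its score. The next best partner of ENSBTAG00000003550 was ENSBTAG00000027937 at 0.742, and that of ENSBTAG00000039129 was ENSBTAG00000039556 at 0.75. For ENSBTAG00000007543 the next score was 0.644, with ENSBTAG00000018299, and for ENSBTAG00000010180 it was 0.636, with ENSBTAG00000020620.

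Total counts ran from 4826003 to 20434401 per library. A set of 8 libraries stood apart from the rest of their station. In station A, 5 libraries (AI-pregnant heifers 4 and 5, NB-pregnant heifers 1, 4 and 5) had 24.1% to 29.4% of their counts in the 100 most abundant genes, against 13.1% to 18.4% in the other 6, and these are called top-heavy below. In station B, 3 libraries (AI-pregnant heifer 3, non-pregnant heifers 1 and 4) had a profile like station A, with 1455 to 1602 of the 1706 genes retained only in station A above 1 CPM (counts scaled to the library total), against 17 to 147 in the other 9. The remaining 15 libraries are called alike below. LYZ, lysozyme of myeloid cells, was at 455 to 2146 CPM in all 23 libraries, and FCER1A, a receptor subunit for IgE on basophils and dendritic cells, at 3.11 to 30.9 CPM. ALAS2, the heme synthesis enzyme of red cell precursors, was at 14.7 to 102 CPM in AI-pregnant heifers of station A and at 1.42 to 6.06 CPM in those of station B. It was the only 1 of the 3 red cell markers considered that could be matched to an identifier, and its part in the station differences given below was not tested.

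The levels per length placed all 4 genes in the middle or lower part of the expressed range. Over the 23 heifers ENSBTAG00000007543 had a median of 14.6 FPKM (range 6.36 to 29.7), ENSBTAG00000003550 a median of 10.8 FPKM (6.11 to 29.5), ENSBTAG00000010180 (URB2) a median of 2.22 FPKM (1.26 to 4.93) and ENSBTAG00000039129 a median of 2.01 FPKM (0.475 to 8.20). Among the 10422 genes these medians lie at the 51.5th, 36.8th, 13.9th and 14.3th percentile, in that order. The ranges of the 2 genes of a pair overlapped, which the selection requires because their order has to change between heifers. ENSBTAG00000003550 was above ENSBTAG00000007543 in 10 heifers and below it in 13, and ENSBTAG00000039129 was above ENSBTAG00000010180 in 10 and below it in 13. Between the pairs the order was almost fixed. Both genes of the first pair exceeded ENSBTAG00000010180 in 23 of 23 heifers, ENSBTAG00000003550 exceeded ENSBTAG00000039129 in 23, and ENSBTAG00000007543 exceeded it in 22, the exception being AI-pregnant heifer 2 of station A. FPKM were scaled within each station on its own retained genes, so a level set across stations carries that difference.

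ENSBTAG00000003550 was lower in station A and, in both stations, centred higher in AI-pregnant heifers. In AI-pregnant heifers of station A it ran from 13.6 through a median of 21.6 to 26.0 CPM. The 5 NB-pregnant heifers had 16.8, 17.4, 16.9, 14.6 and 15.5 CPM. In station B the AI-pregnant heifers ran from 20.3 through a median of 52.9 to 65.6 CPM, and the non-pregnant heifers from 13.4 through 39.6 to 54.9 CPM. The groups overlapped within both stations. The 3 station B libraries with a profile like station A held its 3 lowest values of that station, 13.4 to 20.3 CPM, against 38.4 to 65.6 CPM in the other 9. The NB-pregnant group was the tightest of all, at 16.2 ± 1.16 CPM (SD, n = 5).

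ENSBTAG00000007543 was also lower in station A, and there its higher values belonged mostly to NB-pregnant heifers. AI-pregnant heifers of station A ran from 12.3 through a median of 16.1 to 30.6 CPM. The NB-pregnant heifers had 28.3, 19.0, 19.1, 30.8 and 20.3 CPM, each of them above at least 5 of the 6 AI-pregnant heifers. The AI-pregnant heifer with 30.6 CPM was heifer 4, a top-heavy library. Top-heavy libraries had 15.1 to 30.8 CPM, against 12.3 to 19.1 CPM in the other 6 of station A. In station B the AI-pregnant heifers ran from 19.2 through 32.4 to 42.4 CPM and the non-pregnant heifers from 12.7 through 40.0 to 57.4 CPM. Again the 3 libraries with a profile like station A were the lowest of station B, at 12.7 to 19.2 CPM against 30.5 to 57.4 CPM.

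For ENSBTAG00000010180, or URB2, as for the other members, the kinds of station B library did not overlap while stations and outcomes did. It ran from 8.35 through a median of 14.7 to 19.8 CPM in AI-pregnant heifers of station A, and from 6.61 through 9.25 to 20.3 CPM in those of station B. The NB-pregnant heifers had 8.57, 21.8, 23.1, 11.3 and 12.4 CPM, and the non-pregnant heifers ran from 7.19 through 9.43 to 25.1 CPM. The 5 top-heavy libraries of station A had 8.35 to 12.4 CPM and the other 6 had 11.6 to 23.1 CPM. In station B the order of the classes was the reverse of that for the first pair, since the 3 libraries with a profile like station A had 20.3 to 25.1 CPM and the other 9 had 6.61 to 11.8 CPM.

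ENSBTAG00000039129 was the least abundant by counts, with 3 to 110 reads per library, and had the widest range, its highest FPKM being 17.2 times its lowest. The same fold was 4.83 for ENSBTAG00000003550, 4.66 for ENSBTAG00000007543 and 3.91 for ENSBTAG00000010180. AI-pregnant heifers of station A ran from 2.62 through a median of 5.85 to 9.27 CPM, and the NB-pregnant heifers had 1.82, 4.39, 4.89, 1.72 and 2.28 CPM. In station B it ran from 0.750 through 1.77 to 5.18 CPM in AI-pregnant and from 0.538 through 1.22 to 5.09 CPM in non-pregnant heifers. The groups overlapped within each station. Here too the 3 libraries with a profile like station A lay apart, at 3.92 to 5.18 CPM against 0.538 to 1.97 CPM in the other 9 of station B. These 3 libraries were set apart by their profile over many genes. The share of all genes that separate them from the other 9 was not counted. Their separation in all 4 genes is therefore not a finding about these genes.

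**Figure D1:**
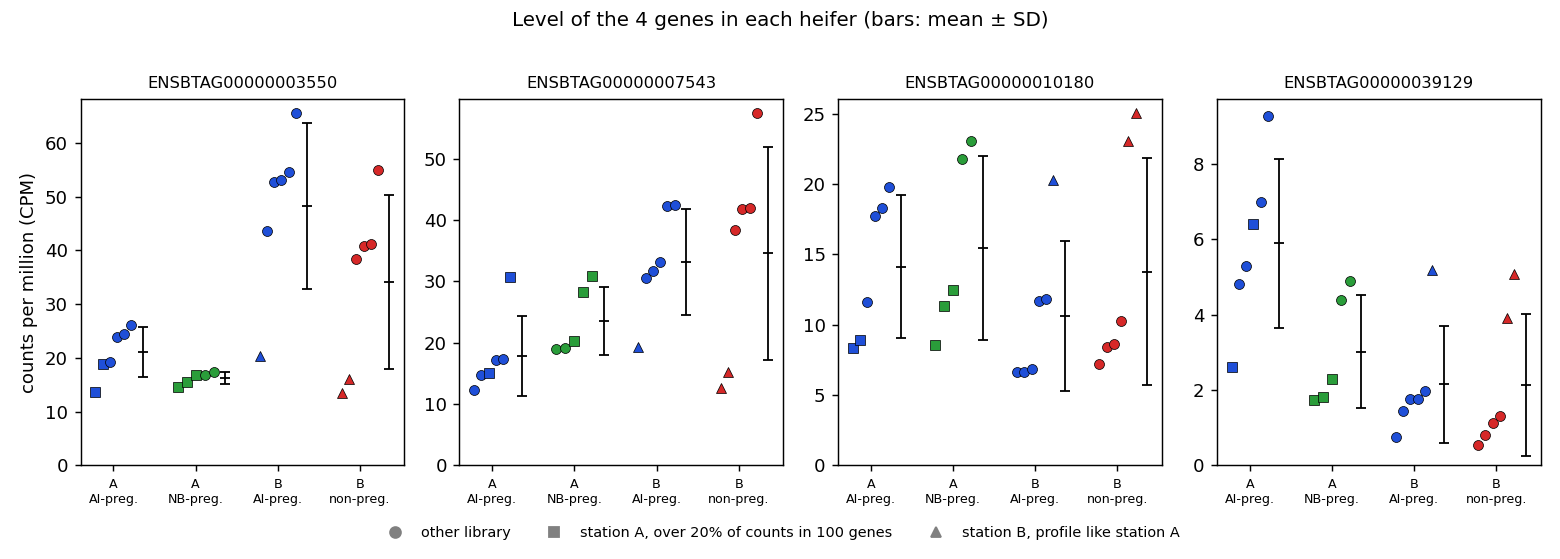
Level of each gene in CPM (linear axis from 0) for every heifer, by station and pregnancy outcome, with the group mean ± SD beside the points. The 3 station B libraries with a profile like station A (triangles) sit below the other 9 for ENSBTAG00000003550 (at most 20.3 against at least 38.4 CPM) and above them for ENSBTAG00000010180 (at least 20.3 against at most 11.8 CPM).

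The station comparison asks whether the level of a gene differed between stations in heifers with the same outcome, which only the AI-pregnant heifers allow. ENSBTAG00000003550 and ENSBTAG00000007543 were lower in station A, ENSBTAG00000039129 was higher in station A, and ENSBTAG00000010180 did not pass the test. The log2 fold change of station A over station B was -1.23 (standard error 0.30) for ENSBTAG00000003550, with an adjusted p of 0.00533 in edgeR's quasi-likelihood test (6 heifers against 6). For its partner ENSBTAG00000007543 it was -0.88 (standard error 0.32, adjusted p 0.0317, edgeR). For ENSBTAG00000039129 it was 1.49 (standard error 0.45, adjusted p 0.0146, edgeR), and for ENSBTAG00000010180 it was 0.41 (standard error 0.34, adjusted p 0.289, edgeR).

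These calls stand against a high background, because 59.6% of the 12059 genes tested were called between the stations, 28.9% higher and 30.8% lower in station A. A count of 3 of the 4 genes is near that share. None of the 4 genes had AI-pregnant CPM without overlap between the stations, where 20.4% of all genes did. AI-pregnant heifer 3 of station B, whose profile is like station A, lay within the station A range for 3 of the 4 genes and just above it for ENSBTAG00000010180 (20.3 against at most 19.8 CPM). The call for ENSBTAG00000007543 was the least stable, as it held in 5 of the 12 fits that left out 1 heifer, with adjusted p from 0.00366 to 0.0792 in edgeR's test.

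Without AI-pregnant heifer 3 of station B and the top-heavy AI-pregnant heifers 4 and 5 of station A, all 4 genes passed the test in the same directions. The log2 fold changes were then -1.33, -1.35, 0.83 and 2.01 for ENSBTAG00000003550, ENSBTAG00000007543, ENSBTAG00000010180 and ENSBTAG00000039129, with adjusted p of 1.65e-05, 2.75e-05, 0.00676 and 1.62e-04 (edgeR, 4 heifers against 5). In that fit 9944 of 12059 genes were called, so the background was higher as well. The library removed from station B had been set apart for its likeness to station A, which by construction widens the gap. Among these alike libraries ENSBTAG00000003550 had 19.2 to 26.0 CPM in station A and 43.6 to 65.6 CPM in station B. ENSBTAG00000007543 had 12.3 to 17.4 against 30.5 to 42.4 CPM, ENSBTAG00000010180 had 11.6 to 19.8 against 6.61 to 11.8 CPM, and ENSBTAG00000039129 had 4.81 to 9.27 against 0.750 to 1.97 CPM. The stations then overlapped for ENSBTAG00000010180 and for none of the others. The share of all genes without overlap was not counted in these alike libraries, so nothing is read from this about the 4 genes.

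**Figure D2:**
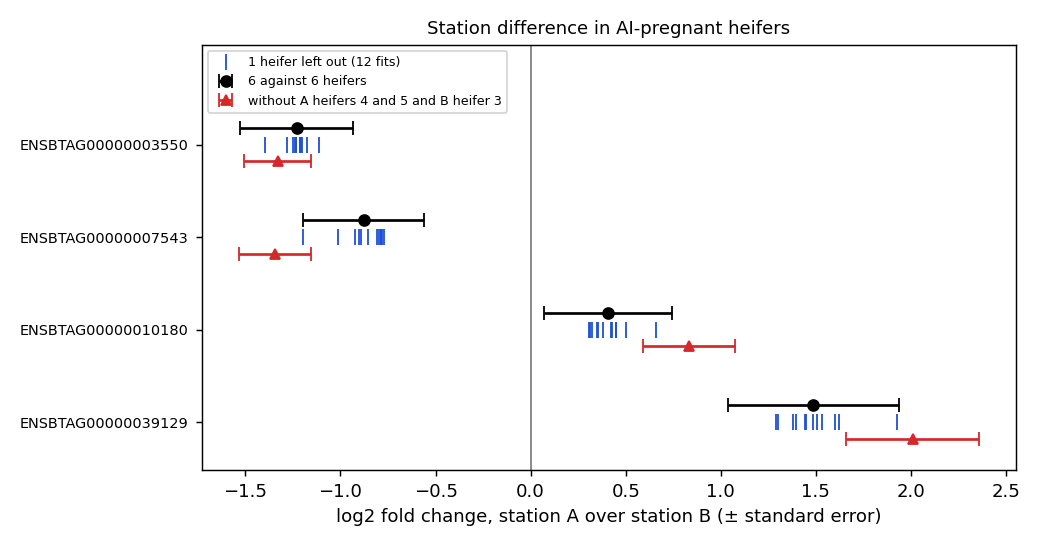
Log2 fold change of station A over station B in AI-pregnant heifers for each gene, with its standard error (black), the 12 fits that left out 1 heifer (blue ticks) and the fit without the 3 libraries that stood apart (red triangles). ENSBTAG00000003550 and ENSBTAG00000007543 lie below 0 in every fit (-1.40 to -1.11 and -1.20 to -0.77 with 1 heifer left out), ENSBTAG00000010180 and ENSBTAG00000039129 above 0 (0.31 to 0.66 and 1.29 to 1.93).

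The outcome comparison asks how far each gene alone differed between AI-pregnant heifers and the other heifers of the same station. In station A the log2 fold change of NB-pregnant over AI-pregnant, fitted without normalization factors as the study did, was -0.38 (standard error 0.27) for ENSBTAG00000003550 and 0.40 (standard error 0.31) for ENSBTAG00000007543. It was 0.13 (standard error 0.38) for ENSBTAG00000010180 and -0.93 (standard error 0.43) for ENSBTAG00000039129. The median over all 12128 genes was -0.12 in this fit and 0.01 with TMM factors, and with these factors the 4 values were -0.20, 0.55, 0.26 and -0.85. Without the 5 top-heavy libraries, 4 AI-pregnant and 2 NB-pregnant heifers remained. Again without factors, the 4 values were then -0.45, 0.31, 0.41 and -0.50 (standard errors 0.26, 0.27, 0.30 and 0.39). The value of ENSBTAG00000039129 was smaller in size and that of ENSBTAG00000010180 larger. These shifts rest on 2 NB-pregnant heifers and were not tested. In each pair the gene that the rule takes as the higher one in AI-pregnant heifers had the lower fold change. Markers of myeloid cells moved with the same outcome in station A. LYZ was at 1026 to 1671 CPM in AI-pregnant and 684 to 918 CPM in NB-pregnant heifers of station A, and FCER1A had medians of 15.9 and 8.43 CPM. The study picked both markers from the station A libraries for their outcome difference, and their part in the values of the 4 genes was not tested.

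In station B the log2 fold changes of non-pregnant over AI-pregnant were -0.50 (standard error 0.43), 0.06 (standard error 0.44), 0.39 (standard error 0.50) and 0.04 (standard error 0.62), in the order ENSBTAG00000003550, ENSBTAG00000007543, ENSBTAG00000010180 and ENSBTAG00000039129. The values for ENSBTAG00000007543 and ENSBTAG00000039129 were within 0.1 of 0. Without the 3 libraries with a profile like station A, 5 AI-pregnant and 4 non-pregnant heifers remained. The 4 values were then -0.30, 0.32, -0.02 and -0.63 (standard errors 0.20, 0.21, 0.31 and 0.46), in the same order. In the second pair URB2 had the higher signed value in both fits. The value larger in size was that of URB2 with all libraries and that of ENSBTAG00000039129 among the alike ones. This change was not tested, and the standard errors are large beside it. With 1 heifer left out the value for ENSBTAG00000039129 ran from -0.43 (without non-pregnant heifer 4) to 0.55 (without AI-pregnant heifer 3), and that for ENSBTAG00000007543 from -0.15 (without non-pregnant heifer 5) to 0.23 (without non-pregnant heifer 4), so neither had a settled sign. The study's call rule (unadjusted P of 0.01 or less in both edgeR and DESeq2) takes 0.148% of the genes tested in station A and 0.0554% of those in station B, and none of the 4 genes is among them. As the genes were selected on this contrast, nothing is read from that count.

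Over all heifers of both stations, each ratio ordered the heifers better than its genes alone, but in station A this did not hold for the first pair. Of all 132 pairs made of 1 AI-pregnant and 1 other heifer, ENSBTAG00000003550 was higher in the AI-pregnant one in 71.2% and ENSBTAG00000039129 in 69.7%, while for ENSBTAG00000007543 and ENSBTAG00000010180 the share was 42.4% and 38.6%. The ratio of ENSBTAG00000003550 to ENSBTAG00000007543 was higher in the AI-pregnant heifer in 90.2% and that of ENSBTAG00000039129 to ENSBTAG00000010180 in 85.6%. Within the stations the pairs differed. In station A the first ratio gave 83.3%, as ENSBTAG00000003550 alone did, and ENSBTAG00000007543 alone gave 13.3%, a share further from an even split than that of the ratio. The second ratio gave 100% there, ENSBTAG00000039129 alone 90.0% and ENSBTAG00000010180 alone 40.0%. In station B the first ratio gave 94.4% and the second 75.0%. The selection looked for pairs whose order follows the outcome, so a gain of a ratio over its genes is not a finding. These shares describe the selected heifers and are not a measure of prediction.

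**Figure D3:**
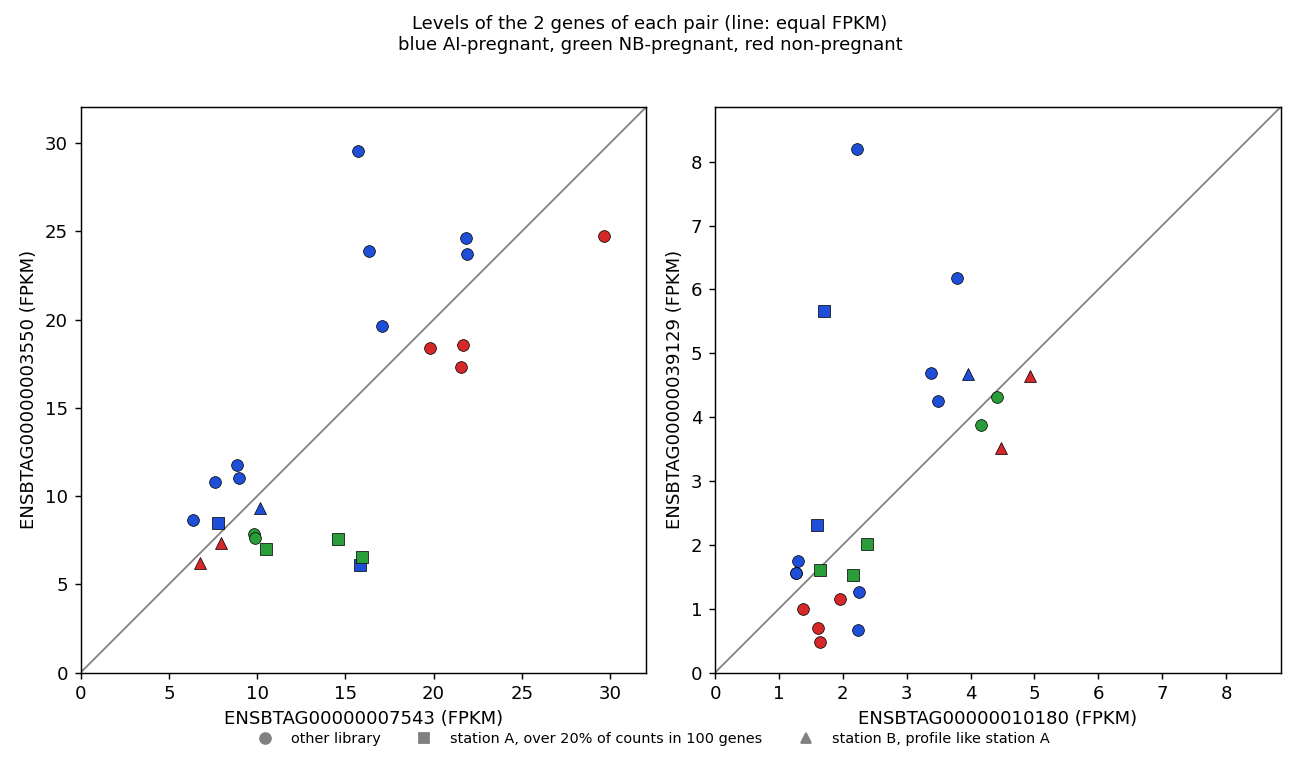
FPKM of the genes of each pair plotted against each other (linear axes from 0), 1 point per heifer, with the line of equal FPKM. In the left panel the 9 alike station B libraries lie at 15.7 to 29.7 FPKM of ENSBTAG00000007543 and the 6 alike station A libraries at 6.36 to 9.90 FPKM, and the AI-pregnant points of both clusters lie above the line.

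The ratio of ENSBTAG00000003550 to ENSBTAG00000007543 was 1.23, 1.36, 1.42, 0.386, 1.09 and 1.33 in AI-pregnant heifers 1 to 6 of station A. The NB-pregnant heifers had ratios of 0.518, 0.798, 0.768, 0.412 and 0.667. Among station B heifers it ran from 0.920 through a median of 1.14 to 1.88 in AI-pregnant and from 0.802 through 0.888 to 0.927 in non-pregnant heifers. The non-pregnant heifers were close to each other and close to 1, with an SD of 0.09 on the log2 scale, where counting error alone gives 0.12. The selection favours pairs with all these ratios below 1, which can narrow their spread, so nothing is read from the small SD. NB-pregnant heifers lay further below 1 (log2 SD 0.40). Heifer 4 of the station A AI-pregnant group, with 0.386, was below all NB-pregnant heifers, and its 95% interval of 0.287 to 0.515 left out 1. Heifer 3 of the station B AI-pregnant group had 0.920, with an interval of 0.739 to 1.15, so its side was not settled at this depth. Both are libraries that stood apart, and no other heifer was misplaced by this pair. Among the alike libraries it therefore placed 15 of 15 heifers on their own side, a count fixed by leaving these heifers out. The part of the kind of library in their ratios was not tested.

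The intervals are exact binomial (Clopper-Pearson) intervals of the share of the 2 counts, rescaled by gene length, and they cover counting error only. For the first pair the interval left out 1 in 13 of 23 heifers, 12 of them on their own side. In the other 10 heifers the interval held 1. It left out 1 in 5 of 6 AI-pregnant and 4 of 5 NB-pregnant heifers of station A, and in 2 of 6 heifers of either outcome in station B. Over all heifers the log2 ratio had an SD of 0.56, and counting error accounted for an SD of 0.15.

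The ratio of ENSBTAG00000039129 to ENSBTAG00000010180 was 1.63, 3.69, 1.39, 3.32, 1.45 and 1.22 in AI-pregnant heifers 1 to 6 of station A, all above 1. The NB-pregnant heifers had ratios of 0.985, 0.932, 0.980, 0.706 and 0.849, all below 1. Among station B heifers it ran from 0.297 through a median of 1.21 to 1.34 in AI-pregnant and from 0.289 through 0.659 to 0.941 in non-pregnant heifers. AI-pregnant heifers 2 and 5 of station B had 0.297 (95% interval 0.117 to 0.634) and 0.563 (0.290 to 1.004), on the side of the other heifers. They had 7 and 13 reads of ENSBTAG00000039129 and neither library stood apart. Without the 8 libraries that stood apart the pair placed 13 of 15 heifers on their own side.

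Counting error weighed more on the second pair. Its interval left out 1 in 5 of 23 heifers, 4 of them on their own side, and in 0 of the 5 NB-pregnant heifers. The log2 ratio had an SD of 0.89 over all heifers, against 0.43 from counting alone. Scaling by length also set its boundary, since ENSBTAG00000010180 is 5246 bases long in the tables and ENSBTAG00000039129 is 1133. On CPM, without that scaling, ENSBTAG00000010180 was above ENSBTAG00000039129 in all 23 heifers, so 11 heifers and 0 of the AI-pregnant ones kept their side. The genes of the first pair have 2222 and 1938 bases, and on CPM 19 of 23 heifers kept their side.

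The pairs misplaced different heifers, so 5 of 6 AI-pregnant heifers of station A and 3 of 6 of station B were on their own side in both pairs, as were 5 of 5 NB-pregnant and 6 of 6 non-pregnant heifers. No heifer was misplaced by both pairs.

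**Figure D4:**
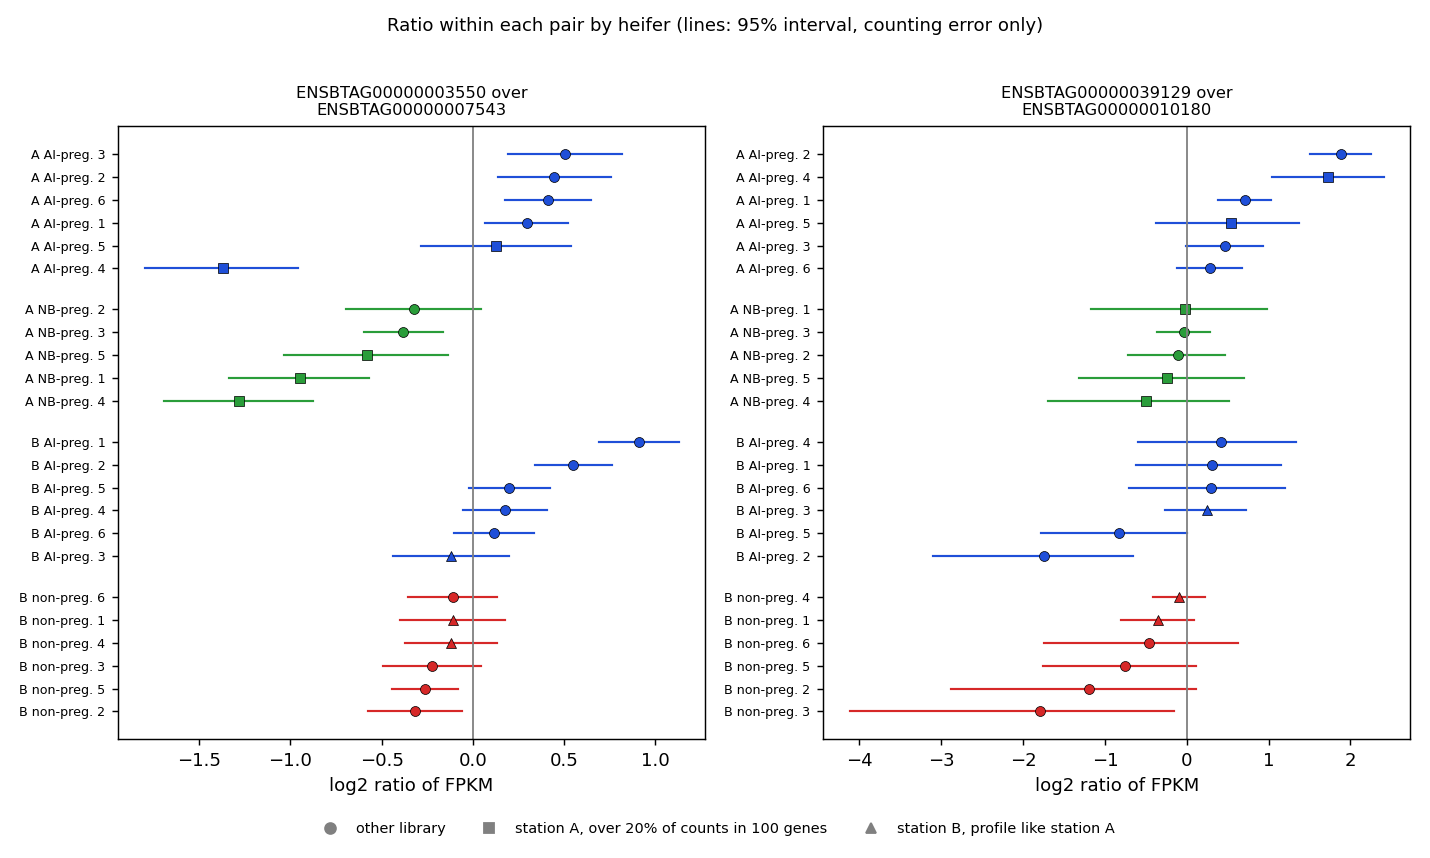
Log2 ratio of FPKM within each pair for every heifer, grouped by station and outcome, with lines for the 95% interval from counting error and a vertical line at equal levels. For ENSBTAG00000003550 over ENSBTAG00000007543 the interval left out 0 in 13 heifers, and for ENSBTAG00000039129 over ENSBTAG00000010180, with as few as 3 reads, in 5.

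Across the 23 libraries, after the mean of each station was subtracted, the log2 CPM of the genes of a pair moved together only loosely. Pearson's r was 0.575 (Spearman's rho 0.380) for ENSBTAG00000003550 and ENSBTAG00000007543, and 0.544 (rho 0.331) for ENSBTAG00000010180 and ENSBTAG00000039129. These points share the split of station B into kinds of library. Within the alike libraries r for the first pair was -0.566 in station A (6 libraries) and -0.07 in station B (9 libraries), and for the second -0.840 and -0.531. As the selection rewards a partner that goes the other way with outcome, these values are a description.

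Other genes followed each member more closely. The gene most like ENSBTAG00000003550 was ENSBTAG00000017011 (r 0.927, rho 0.813), followed by ENSBTAG00000032640 and ENSBTAG00000004933. The pattern of ENSBTAG00000007543 was most like that of ENSBTAG00000027321 (r 0.933, rho 0.905), then ENSBTAG00000015780 and ENSBTAG00000016328. For ENSBTAG00000010180 it was ENSBTAG00000001387 (r 0.938, rho 0.899), then ENSBTAG00000000321 and ENSBTAG00000021002. For ENSBTAG00000039129 the closest was ENSBTAG00000020503 (r 0.855, rho 0.746), then ENSBTAG00000016896 and ENSBTAG00000021805. Each was the closest among 10422 genes over 23 libraries, whose kinds the points share. The likeness was not kept within the kinds of library for every gene named. Among the 6 alike libraries of station A, r of ENSBTAG00000007543 was -0.339 with ENSBTAG00000015780 and 0.0012 with ENSBTAG00000016328, and the other genes named, the closest included, had r of 0.404 to 0.930 with their member. Among the 9 alike libraries of station B the genes named had r of 0.323 to 0.895. In these 9 libraries r with the closest gene was 0.836, 0.440, 0.815 and 0.720 for the 4 members in the same order, and among the 6 alike libraries of station A it was 0.854, 0.698, 0.404 and 0.824.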

How the data were processed

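PWBC messenger RNA was sequenced in 23 heifers with a stranded kit. The authors aligned reads to UMD 3.1, removed multiply mapped and duplicated reads, and counted fragments per Ensembl gene with HTSeq. They deposited raw counts of all annotated genes per station, and FPKM of the genes over 1 CPM in 6 or more libraries of a station (12128 in station A, 10832 in station B). The deposited FPKM are the counts divided by gene length and by the summed counts of the retained genes of that station. Levels in CPM use the sum of all counted genes.

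The 4 genes, the gene lists and the rule for named genes (the 4 genes, the 3 genes most like each, and the next best partner of each) were chosen with earlier results of these data known. The station contrast joined the counts of both stations for the 12 AI-pregnant heifers (over 1 CPM in 6 or more) and used edgeR 4.0.16 (TMM, robust quasi-likelihood test, Benjamini-Hochberg adjustment over all 12059 genes, threshold 0.05) in R 4.3.3. Outcome fold changes used edgeR's likelihood ratio fit without factors, and DESeq2 1.42.0 as the second tool of the study's rule. Likeness used log2 CPM with a prior count of 2. The fits and the pair score were tested on simulated data with known changes. Alternatives were other normalization, filters, samples and tool, each heifer left out, and, chosen after seeing the data, fits without the libraries that stood apart. Heifers are the replicates, 1 library each. Precision was limited by the 5 or 6 heifers per group and by the spread between them. It was also limited by reads per gene, from 3 to 555 for the 4 genes in libraries of 4826003 to 20434401 counts. In both pairs the SD of the log2 ratio over all heifers (0.56 and 0.89) exceeded that from counting error (0.15 and 0.43). The gene table used here pairs none of its symbols with the Ensembl identifiers of the files, so the RNA polymerase I and ribosome assembly lists and the markers of leucocytes in general, hemoglobin and platelets were not analysed here, and no sequence or coordinate is given. The identifiers of LYZ, FCER1A and ALAS2 come from the study's text.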

Additional observations from a re-analysis of the deposited data

Results flagged for a closer look

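In 3 of the 24 groups examined, the most distant heifer was further from the rest than Dixon's 95% limit allows. Chance passes this limit in about 1 of 20 groups of values that no selection has used. The selection used the values of these heifers, most directly the ratios, so the flags are a description and not a test. AI-pregnant heifer 4 of station A, a top-heavy library, had 30.6 CPM of ENSBTAG00000007543, where the next heifer of its group had 17.4 CPM. The same heifer had a log2 ratio of ENSBTAG00000003550 over ENSBTAG00000007543 of -1.37, where the next was 0.12. AI-pregnant heifer 3 of station B, with a profile like station A, had 5.18 CPM of ENSBTAG00000039129, where the next had 1.97 CPM.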

How the results depend on the processing

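The station difference of ENSBTAG00000007543 missed the threshold without a filter on low counts (-0.88, adjusted p 0.0568), with a filter of over 1 CPM in all 12 libraries (-0.60, adjusted p 0.0898) and with all 23 libraries as 4 groups (-0.83, adjusted p 0.0594, edgeR in each), and ran from -1.20 (without AI-pregnant heifer 4 of station A) to -0.77 with 1 heifer left out. The cause was not tested. ENSBTAG00000010180 ran from 0.31 to 0.66 and passed only without AI-pregnant heifer 3 of station B (adjusted p 0.0442, edgeR), and reached 0.83 without the 3 libraries that stood apart. ENSBTAG00000039129 was not tested under the stricter filter. Genes called between stations numbered 5928 to 9469 with 1 heifer left out, the most without AI-pregnant heifer 3 of station B. The station differences kept their sign in every fit. Of the outcome differences, which were not tested, those of ENSBTAG00000010180 in station A (-0.07 without NB-pregnant heifer 3, 0.28 without NB-pregnant heifer 1) and of ENSBTAG00000007543, ENSBTAG00000010180 and ENSBTAG00000039129 in station B changed sign in 1 or more fits (-0.15, -0.02 and -0.63 at the lowest). Heifers on their own side numbered 12 for the first pair and 4 for the second where the interval had to leave out 1, and 11 for the second on CPM. For the second pair 13 of the 15 alike heifers were on their own side, fewer because fewer heifers entered. No paired analysis was possible because the labels give no replicate numbers that the groups share. Depth limits the second pair most, with as few as 3 reads of ENSBTAG00000039129.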
